A study of Mus musculus with 2 samples.

Results

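Mouse CD8+ T cells holding at least 1 unique molecular identifier (UMI, a tag that marks 1 captured RNA molecule) of Rpgrip1 are described here across genes. Barcodes were kept from 1000 UMIs and 500 genes upward, provided that mitochondrial transcripts made up no more than 10% of the total. By that rule 3377 of 13617 kept cells of the library labelled HC and 4483 of 13641 kept cells of the library labelled NC were members, 7860 of 27258 in all. The members were thus defined by a measured value, the Rpgrip1 count itself, so their Rpgrip1 levels are given as a description. Where one existed, each member was paired with a kept cell of its own library that had 0 Rpgrip1 UMIs and a total within 5% of its own, called a zero cell below.

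The study profiled murine CD8+ T cells of lymph node origin by 10x Genomics 3' single-cell RNA sequencing, and its design sets cells that received electrical stimulation through their matrix against cells that did not. There was 1 library for HC and 1 for NC, and the labels used here give neither the meaning of the abbreviations nor which library was stimulated, nor the strain, age, stimulus or number of mice. Each group was thus 1 library without replicates, so library and group cannot be told apart and no test was run. Every interval below is a 95% interval for counting error only.

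Rpgrip1 encodes a scaffold protein of the ciliary transition zone, where it holds the retinitis pigmentosa GTPase regulator RPGR in place. It is best known from the connecting cilium of photoreceptors, and its loss causes retinal degeneration in mice and humans. T cells carry no primary cilium, although they use parts of the intraflagellar transport machinery at the immune synapse. The genes set beside it act elsewhere: Slc39a1 encodes the zinc importer ZIP1, Notch2 a receptor cut on contact with ligand to release a transcriptional coactivator, Nrgn the calmodulin-binding protein neurogranin, Cbx3 the heterochromatin protein HP1-gamma and Actb beta-actin.

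Slc39a1 and Notch2 were the genes of that set whose ratios to zero cells were highest in NC cells with many Rpgrip1 UMIs, and their promoters are printed with that of Rpgrip1. All are RefSeq sequences on GRCm38.p6, from 250 bases before to 50 bases after the RefSeq start, on the plus strand, which is the strand of each gene. Capitals mark matches on either strand to GGGCGG, the GC box, or to TGGGAA, the core bound by the Notch pathway factor RBPJ. Rpgrip1 spans chr14:52110653-52110952, Slc39a1 chr3:90247942-90248241 and Notch2 chr3:98013288-98013587.
Rpgrip1: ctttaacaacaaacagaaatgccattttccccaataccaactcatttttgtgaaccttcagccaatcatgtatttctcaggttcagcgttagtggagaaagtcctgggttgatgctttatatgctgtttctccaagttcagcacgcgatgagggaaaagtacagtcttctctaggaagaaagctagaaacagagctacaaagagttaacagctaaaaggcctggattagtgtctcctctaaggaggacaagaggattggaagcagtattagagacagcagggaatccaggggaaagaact
Slc39a1: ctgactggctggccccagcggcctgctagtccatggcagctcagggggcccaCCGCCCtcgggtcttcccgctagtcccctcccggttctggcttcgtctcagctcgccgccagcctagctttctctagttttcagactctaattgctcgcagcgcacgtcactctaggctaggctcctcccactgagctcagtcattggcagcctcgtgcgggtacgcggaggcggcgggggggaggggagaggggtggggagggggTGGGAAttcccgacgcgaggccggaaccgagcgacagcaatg
Notch2: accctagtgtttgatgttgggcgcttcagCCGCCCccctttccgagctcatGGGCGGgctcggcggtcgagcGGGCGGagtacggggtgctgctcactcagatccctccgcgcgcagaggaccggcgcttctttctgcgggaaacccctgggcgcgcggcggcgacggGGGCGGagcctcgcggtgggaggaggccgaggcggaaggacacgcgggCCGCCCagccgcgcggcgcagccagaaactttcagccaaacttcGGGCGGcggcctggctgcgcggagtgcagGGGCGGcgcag
The Rpgrip1 window held 0 matches to either motif and was 42.7% G and C, against a median of 52.7% over 32851 promoters of the same length. In the GENCODE vM21 annotation Rpgrip1 starts at 52110704, before the RefSeq start, so most of its window lies within the gene there. The Slc39a1 window held 1 GC box and 1 RBPJ core and was 66.7% G and C. The Notch2 window held 7 GC boxes and 0 RBPJ cores and was 73% G and C. Across all promoters 35.7% held a GC box and 25.6% an RBPJ core. The AP-1 motif TGANTCA and the EGR motif GCGTGGGCG, searched on both strands, had 0 matches in these windows, while 7.81% and 0.612% of all promoters held them. These are matches of letters only and were not tested for binding.

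Rpgrip1 was found in fewer HC cells than NC cells. The share of kept cells with at least 1 Rpgrip1 UMI was 24.8% in HC (24.1 to 25.5) and 32.9% in NC (32.1 to 33.7). After each cell was thinned to 2000 UMIs the share was 7.33% in HC (6.89 to 7.78) and 10.5% in NC (9.94 to 10.98), so the intervals did not overlap at equal depth either. Summed over kept cells, Rpgrip1 stood at 36.9 CPM (UMIs per 1000000 UMIs) in HC (35.8 to 38.0) and at 53.9 CPM in NC (52.6 to 55.3). On the log2 scale HC stood at -0.55 relative to NC (-0.61 to -0.49), so the level was 1.46-fold higher in NC. Without cycling cells, those with 3 or more UMIs summed over Mki67, Top2a, Ccnb1, Ccnb2, Cdk1 and Birc5, that ratio was -0.28 (-0.40 to -0.16), and without cells holding a UMI of the chemokines Xcl1, Ccl3 or Ccl4 it was -0.41.

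NC supplied 57.0% of the members (55.9 to 58.1), so "mostly NC" describes cells with 1 or more UMIs only weakly. Its part was larger at higher counts. NC held 63.8% of the 1893 cells with at least 2 Rpgrip1 UMIs, 73.7% of the 487 with at least 3, 84.1% of the 145 with at least 4 and 89.5% of the 57 with at least 5. Most members carried a single UMI: 2692 HC cells had 1, 557 had 2, 105 had 3, 17 had 4 and 6 had 5, the highest count in HC. In NC 3275 cells had 1 UMI, 849 had 2, 237 had 3, 71 had 4, 32 had 5 and 19 had 6 to 8. The threshold therefore lay between 2692 HC cells just inside it and 10240 HC cells at 0, and between 3275 NC cells and 9158 at 0.

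**Figure D1:**
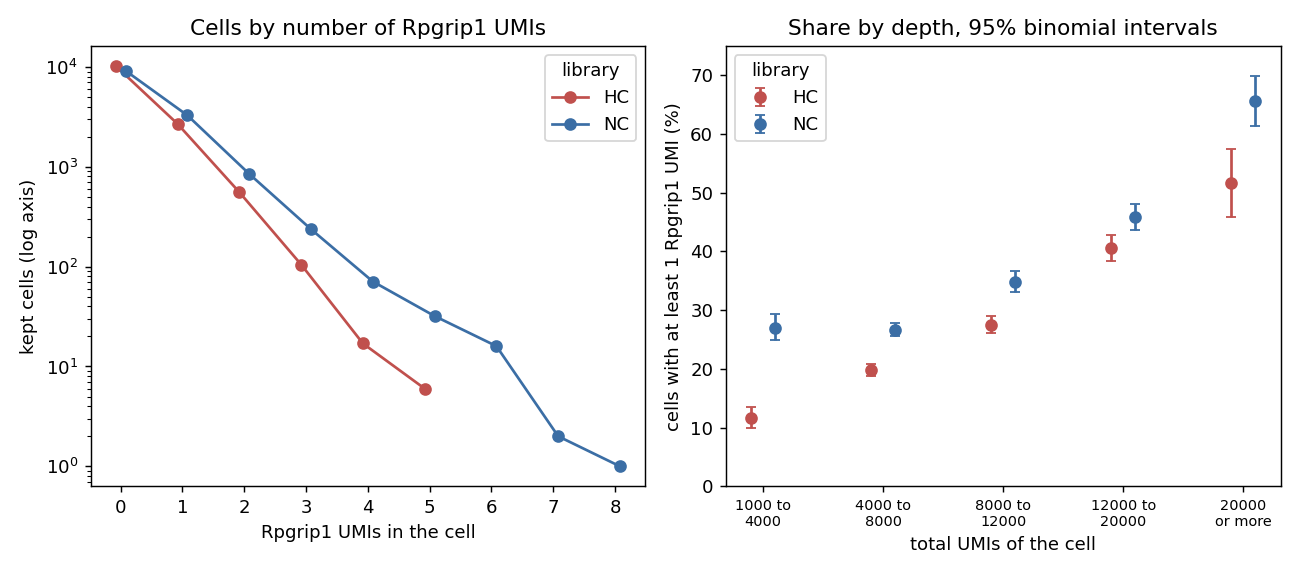
Left, kept cells (log axis) by their number of Rpgrip1 UMIs in HC (red) and NC (blue). Right, the share of cells with at least 1 Rpgrip1 UMI by total UMIs of the cell, with 95% binomial intervals. The NC curve has the longer tail, reaching 8 UMIs against 5 in HC, and the shares differ most in cells of 1000 to 4000 UMIs, at 11.7% in HC and 27.0% in NC.

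A single UMI need not show that a cell makes the transcript, because free RNA enters every droplet. Barcodes left out by the filter held Rpgrip1 in 7.93% of 1878 cases in HC (6.75 to 9.25), at medians of 826 UMIs and 42.2% mitochondrial UMIs, and in 8.30% of 1157 cases in NC (6.77 to 10.0), at medians of 916 UMIs and 39.2%. These barcodes are not a cell type that lacks the gene. Cells marked as B cells by 5 or more UMIs summed over Cd79a, Igkc, Jchain and Mzb1 held Rpgrip1 in 2 of 2 HC cases, at a median of 17428 UMIs, and in 9 of 17 NC cases (27.8 to 77.0%), at a median of 14145 UMIs. The share in NC kept cells of 12000 to 20000 UMIs, 45.9% (43.7 to 48.0), lies inside that interval. Doublets were not removed, and the share that free RNA gives was not separated from expression, so a member is a cell with a UMI and not a cell shown to express the gene.

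Markers of CD8+ T cells stood at like levels in members and zero cells. Summed levels of Cd8a, Cd8b1, Cd3d, Cd3e, Cd3g and Trac were 3733 CPM in HC members and 3735 CPM in HC zero cells, and 4182 CPM in NC members and 4154 CPM in NC zero cells. Sag, the arrestin gene of photoreceptors, had 84 UMIs in HC members and 102 in NC members. A list of CD4 T cell genes summed to 5.80 CPM in HC members and 5.49 CPM in HC zero cells, and to 4.10 and 3.94 CPM in NC, and Cd4 itself had 1 UMI in HC members and 0 in NC members. The regulatory T cell list summed to 303 CPM in HC members and 309 CPM in HC zero cells, and to 255 and 259 CPM in NC. Its defining gene Foxp3 had 2 UMIs in HC members and 3 in NC members, whereas Ikzf2 had 2926 and 4335 and Ctla4, which activated CD8 cells also express, 5489 and 4908. The natural killer list summed to 6.87 CPM in HC members and 6.77 CPM in HC zero cells, and to 5.91 and 6.22 CPM in NC, with Ncr1 at 0 UMIs in both sets of members and Klre1 at 230 in HC members and 242 in NC members.

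The remaining marker lists were given by their sums. The gamma-delta T cell list stood at 107 CPM in HC members and 101 CPM in HC zero cells, a log2 ratio of 0.08 (0.01 to 0.15), and at 124 and 123 CPM in NC, a ratio of 0.02 (-0.04 to 0.07), and nearly all of its UMIs were of Trdc. The plasma cell list was at 34.3 CPM in both HC groups and at 32.4 CPM in NC members against 29.2 CPM in NC zero cells, a ratio of 0.15 (0.04 to 0.26). Most of its UMIs in NC were of Xbp1, with 1204 in members and 1107 in zero cells, and Jchain had 64 and 5. The endothelium list, nearly all Pecam1, was at 40.4 CPM in HC members against 37.2 CPM in HC zero cells, a ratio of 0.12 (0.01 to 0.23), and at 39.5 against 42.6 CPM in NC, a ratio of -0.11 (-0.21 to -0.01). Cdh5 and Kdr, which define endothelium, had 0 UMIs in HC members, and in NC members Cdh5 had 1 and Kdr 0. Dendritic cell genes summed to 1.75 against 2.24 CPM in HC and 1.30 against 1.76 CPM in NC. The fibroblast, red blood cell and platelet lists had 1 to 5 UMIs each in members and 1 to 7 in zero cells. The genes named with Rpgrip1 as markers of these cells, Slc39a1, Notch2 and Nrgn, summed to 84.1 CPM in HC members and 75.1 CPM in HC zero cells, and to 192 and 168 CPM in NC, and this list had been chosen with results of these data known. The part of these lists in the other results was not tested. The variable segments of the T cell receptor were all under 20 CPM. The alpha variable segments summed to 3.51 CPM in HC members and 3.40 CPM in HC zero cells, and to 3.98 and 4.23 CPM in NC.

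The members were deeper than the rest of their library before pairing. Their median total was 8940 UMIs in HC, against 7007.5 in all HC cells with 0 Rpgrip1 UMIs, and 8221 UMIs in NC, against 6472.5. Pairing kept 3364 HC and 4358 NC members, at medians of 8920.5 UMIs in HC members and in their zero cells, and of 8015.5 and 8016 UMIs in NC. The share of mitochondrially encoded UMIs was 4.30% in HC members and 4.25% in HC zero cells, and 3.82% and 4.03% in NC. The libraries shared 64 barcode sequences, of which 12 HC and 18 NC members carried one. Without them the shares with Rpgrip1 were 24.8% in HC and 32.9% in NC.

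Almost no gene set the members apart by a large ratio. Among genes with at least 20 CPM in members or zero cells, 0 of 4967 in HC (0%) and 1 of 5002 in NC (0.02%) differed by at least 1.5-fold. The gene in NC was Igkc, which encodes the kappa light chain constant region, at 40.3 CPM in members and 7.24 CPM in zero cells. In HC, where it was under the floor of 20 CPM, it stood at 6.01 CPM in members and 0.507 CPM in zero cells, a log2 ratio of 3.57 (2.85 to 4.37). Its 1669 UMIs in NC members lay in 40 cells, and 98.2% of them in 10 cells. The 296 UMIs in NC zero cells lay in 48 cells, and 87.2% of them in 10 cells. In thinned cells, Igkc was found in 0.393% of NC members and 0.393% of NC zero cells. In HC members its 202 UMIs lay in 13 cells, and 98.5% of them in 10 cells. The 17 UMIs in HC zero cells lay in 14 cells. In neither library did more members than zero cells hold Igkc, and its ratios rest on few cells. A B cell list of 8 genes summed to 471 CPM in HC members and 453 CPM in HC zero cells, and to 422 and 375 CPM in NC, and most of its UMIs were of Ighm, with 15182 in NC members and 14492 in NC zero cells. Without B-marked cells the Igkc ratio was -0.28 in HC and -0.42 in NC, and 0 genes in NC passed the threshold. Lyz2, a lysozyme of macrophages, had 228 UMIs in 5 NC members and 3 UMIs in 3 NC zero cells, while C1qa of macrophages was at 0 and Csf1r at 2 UMIs in the same members. A macrophage list of 5 genes thus summed to 5.74 CPM in NC members against 0.122 CPM in NC zero cells, and to 0.119 against 0.0596 CPM in HC, and its part in the other results was not tested.

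Slc39a1 was the gene of the named set with the largest ratio in both libraries. It stood at 15.7 CPM in HC members and 12.5 CPM in HC zero cells, a log2 ratio of 0.33 (0.14 to 0.52), and at 24.0 CPM in NC members and 16.5 CPM in NC zero cells, a log2 ratio of 0.54 (0.40 to 0.68). Both intervals lay above 0. Notch2 stood at 7.94 CPM in HC members against 6.44 CPM in HC zero cells, with a log2 ratio of 0.30 (0.04 to 0.57), and at 11.9 against 9.62 CPM in NC, with 0.31 (0.12 to 0.50). It was below the floor of 20 CPM and was not counted among the genes measured. Without cycling cells the ratio of Slc39a1 was -0.06 (-0.56 to 0.43) in HC and 0.28 (-0.04 to 0.60) in NC, and that of Notch2 0.999 (0.19 to 1.85) in HC and 0.00 (-0.46 to 0.46) in NC. Thinned cells gave -0.05 for Slc39a1 in HC.

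Actb and Cbx3 were higher in members by small amounts, and more so in NC. Actb was at 7882 CPM in HC members and 7616 CPM in HC zero cells, a log2 ratio of 0.05 (0.04 to 0.06), and at 9186 CPM in NC members and 7988 CPM in NC zero cells, a ratio of 0.20 (0.19 to 0.21). Cbx3 was at 261 against 252 CPM in HC, with 0.06 (0.01 to 0.10), and at 306 against 266 CPM in NC, with 0.20 (0.16 to 0.24). Nrgn was at 60.4 CPM in HC members with a ratio of 0.11 (0.01 to 0.20) and at 156 CPM in NC members with a ratio of 0.14 (0.08 to 0.19). In NC, Wtap, a subunit of the complex that writes N6-methyladenosine on RNA, was at 57.8 against 46.9 CPM (0.30, 0.22 to 0.39), and Pdcd4, an inhibitor of translation initiation, at 194 against 169 CPM (0.20, 0.16 to 0.25). In HC their ratios were 0.07 (-0.04 to 0.18) and 0.04 (-0.02 to 0.11). Without cycling cells the NC ratios were 0.10 for Actb, 0.13 for Cbx3, 0.03 for Wtap and 0.04 for Pdcd4, and without chemokine cells that of Nrgn was 0.00.

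Further genes at the ends of the ranking had small ratios. In HC, among genes with at least 50 CPM, the ratio was highest for Serpinb6a, a protease inhibitor, at 0.19 (63.1 against 55.5 CPM), followed by the cyclophilin-like gene Ppil4 at 0.16, Ccl5, a chemokine of effector T cells, at 0.16 (113 against 101 CPM) and Atp8b4 at 0.16. The NC ratios of these genes were 0.05, -0.02, 0.01 and -0.12. Also among the 15 highest in HC were Fyn, a kinase of T cell receptor signalling, at 0.15 and Bcl2, which blocks apoptosis, at 0.13. The lowest in HC were Ctps2, a CTP synthase, at -0.22 (46.0 against 53.6 CPM), Eif4ebp1, a repressor of cap-dependent translation, at -0.18 and Cox19, an assembly factor of cytochrome oxidase, at -0.15. Slc16a3, the lactate exporter MCT4, was also among the 15 lowest, at -0.11. In NC, among genes with at least 20 CPM, Igkc, Slc39a1 and Wtap were followed by Pfas, an enzyme of purine synthesis, at 0.26, Klrc1, which encodes the receptor NKG2A, at 0.24 and Rbm15, a further subunit of the N6-methyladenosine writer, at 0.23. Serpine2, a protease inhibitor, at 0.23, Ltv1, a factor of ribosome export, at 0.22 and Bop1, a ribosome assembly factor, at 0.21 came after these. The lowest in NC was Ccl3, an inflammatory chemokine, at 27.6 CPM in members and 39.5 CPM in zero cells, a ratio of -0.52 (-0.63 to -0.41). Its ratio was 0.08 without cycling cells and 0.77 without cells holding a UMI of Egr1, Egr2, Egr3, Nr4a2 or Nr4a3. More NC members than NC zero cells held a UMI of Ccl3, 334 against 265. The 10 cells with most Ccl3 held 28.0% of its UMIs in NC members and 43.5% in NC zero cells. The replication-linked histone gene Hist1h2ab followed at -0.25, with Psrc1, a spindle protein, at -0.25, Ino80d, a subunit of the INO80 chromatin remodeller, at -0.23, Nhlrc2 at -0.22 and Klf3, a repressor of transcription, at -0.22.

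The ratios of the libraries were set side by side gene by gene. Over 1176 genes with at least 100 CPM, the log2 ratios in HC and NC had a Pearson r of 0.018, given as a description across genes, which are not independent. Their SD was 0.03 in HC and 0.04 in NC. A threshold of 1.1-fold at 100 CPM, chosen after the data were seen, passed 1 gene higher in HC members, Ccl5, of 1242 (0.0805%) and 0 lower. In NC it passed 9 genes (0.713%), 6 higher (0.475%) and 3 lower (0.238%) of 1262, and 0 genes passed in both. The higher genes were Pdcd4, Cbx3, Actb, Ly6c2, Gm26917, a noncoding transcript, and Eif4a3, an RNA helicase of the exon junction complex. The lower ones were the histone genes Hist1h2ae (-0.19) and Hist1h1b (-0.16) and the chemokine gene Ccl4 (-0.19). More NC members than NC zero cells held a UMI of Ccl4, 742 against 624. The 10 cells with most Ccl4 held 21.5% of its UMIs in NC members and 28.9% in NC zero cells.

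**Figure D2:**
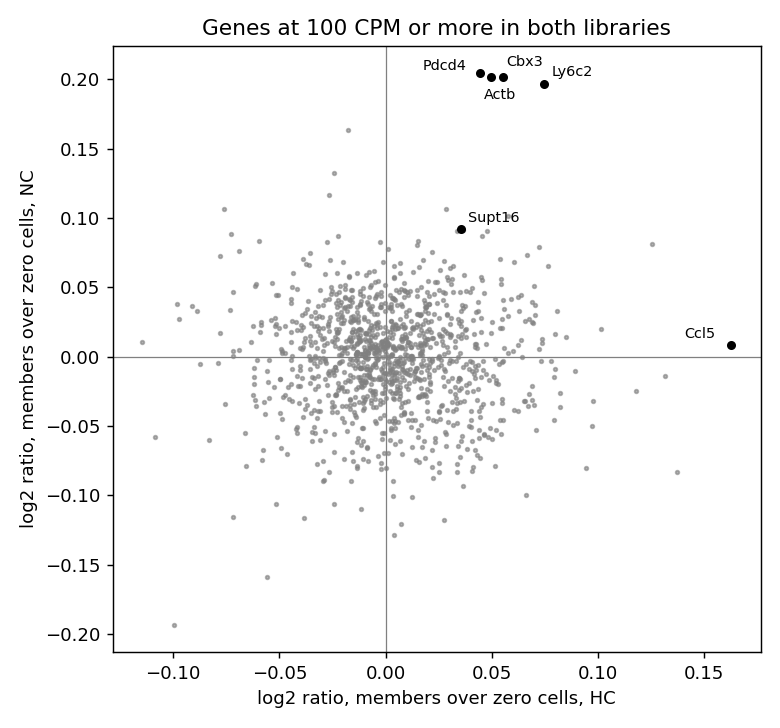
Each point is 1 of 1176 genes with at least 100 CPM. The x axis is the log2 ratio of members over zero cells in HC and the y axis the same ratio in NC. Pdcd4, Actb, Cbx3 and Ly6c2, near 0.20 in NC and at 0.04 to 0.07 in HC, stand above the cloud, and Ccl5, at 0.16 in HC and 0.01 in NC, stands to its right.

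Genes of the protein's own pathway were mostly too low to follow. Of 16 genes of the RPGR complex and the transition zone, 1 reached 20 CPM, B9d2, a transition zone protein, at 39.7 CPM in HC members and 37.6 CPM in HC zero cells and at 33.5 against 31.9 CPM in NC. Rpgrip1l, the closest relative of Rpgrip1, was at 4.88 against 5.01 CPM in HC and 3.21 against 3.23 CPM in NC. Of 17 intraflagellar transport genes, which carry cargo along cilia, 5 were measured in HC with a median log2 ratio of -0.005 and 4 in NC with 0.01. Ift20, which also moves receptors toward the immune synapse, was at 63.0 against 61.5 CPM in HC and 69.7 against 68.0 CPM in NC. The median over all measured genes was 0.003 in HC and -0.004 in NC, and 0 pathway genes passed 1.5-fold.

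Relatives of Slc39a1, Notch2, Cbx3 and Actb were taken as lists. The median was 0.06 in HC and 0.005 in NC over the 4 and 5 zinc genes measured, 0.001 and -0.02 over the 5 and 4 Notch genes, and 0.003 and -0.04 over the 13 genes of HP1 and heterochromatin. Among zinc genes, the importer Slc39a6 had ratios of 0.07 in HC and -0.07 in NC, Slc39a7, which releases zinc from the endoplasmic reticulum, 0.11 and 0.04, and the zinc-binding metallothionein Mt1 -0.01 and 0.00, beside 0.54 for Slc39a1 in NC. In the Notch list, Notch1 was at -0.04 (-0.15 to 0.07) in HC and -0.10 (-0.19 to -0.01) in NC, and Rbpj, the factor through which Notch receptors act on DNA, at 0.00 and -0.03. Of the HP1 genes, Cbx1 was at -0.08 in HC and -0.03 in NC and Cbx5 at 0.03 and -0.06, against 0.06 and 0.20 for Cbx3. Actg1, the second cytoplasmic actin, was at 0.01 in both libraries, Pfn1, which binds actin monomers, at 0.00 and 0.01, and the monomer-binding peptide gene Tmsb4x at 0.00 and -0.01. Over the 20 actin genes measured the median was 0.01 in HC and 0.001 in NC.

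Gene lists of T cell states showed small shifts, with 0 measured list genes past 1.5-fold in either library. Over all measured genes, the ratio was above 0 for 2620 of 4967 in HC and 2335 of 5002 in NC. The counts of list genes above 0 given below are to be read beside these. The 21 mitosis genes had a median log2 ratio of -0.01 in HC members and 0.02 in NC members, and the 21 S phase genes of 0.003 and -0.02. Mki67, a marker of dividing cells, was at 547 CPM in HC members and 556 CPM in HC zero cells, and at 380 and 399 CPM in NC. Ribosome building genes had a median of 0.02 in HC, with 9 of 15 above 0, and of 0.06 in NC, with 16 of 17 above 0, led by Bop1 at 0.21 and Nop16, a nucleolar protein, at 0.16. Glycolysis genes had a median of -0.03 in HC, with 2 of 14 above 0, and 0.02 in NC, with 10 of 13 above 0. Low oxygen genes had medians of -0.02 and -0.03, and Bnip3, which directs mitochondria to degradation, was at 42.6 CPM in HC members against 48.2 CPM in HC zero cells.

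Naive and memory genes had a median of 0.03 in HC, with 9 of 14 above 0, and of -0.07 in NC, with 3 of 14 above 0. In NC the egress receptor S1pr1 was at -0.17 (-0.26 to -0.07), the lymph node homing receptor Ccr7 at -0.11 (-0.15 to -0.07) and Tcf7, which encodes the self-renewal factor TCF-1, at -0.08 (-0.12 to -0.04). The triggering response, genes induced within hours of receptor engagement, had a median of -0.01 in HC, with 6 of 14 above 0, and of -0.05 in NC, with 2 of 16 above 0. There the early activation marker Cd69 was at -0.17 and Egr3 at -0.20, while the co-stimulatory receptor gene Tnfrsf9 was at 0.16 (0.09 to 0.23). Interferon-stimulated genes had a median of -0.01 in HC and -0.06 in NC, with 1 of 8 above 0 in NC. Killing genes had medians of 0.03 in both libraries, inhibitory receptor genes of -0.002 and -0.03 and effector factors of 0.03 and -0.05. The remaining lists, of calmodulin and NFAT, receptor chains, gamma-chain receptors, sterol synthesis, survival, adhesion, chemokines and the respiratory chain, had medians between -0.02 and 0.09.

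Ratios were then taken by the number of Rpgrip1 UMIs in a cell. In HC, Actb was at 7721, 8261 and 8918 CPM in HC cells with 1, 2 and 3 or more Rpgrip1 UMIs, with ratios of 0.03, 0.06 and 0.19 (0.16 to 0.22). Slc39a1 had ratios of 0.29, 0.35 and 0.63 (-0.19 to 1.47), Cbx3 of 0.04, 0.12 and 0.10 (-0.08 to 0.28) and Wtap of 0.04, 0.12 and 0.25 (-0.23 to 0.74).

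In NC most of these ratios were larger in cells with more Rpgrip1 UMIs. Slc39a1 was at 22.2, 26.9 and 30.8 CPM in NC cells with 1, 2 and 3 or more Rpgrip1 UMIs, while their zero cells lay between 14.1 and 16.3 CPM, and the log2 ratios were 0.44, 0.94 and 0.94 (0.56 to 1.33). Notch2 was at 11.02, 12.5 and 16.8 CPM, with ratios of 0.17, 0.48 and 1.04 (0.51 to 1.59). Wtap had ratios of 0.17, 0.42 and 0.81 (0.56 to 1.05) and Pdcd4 of 0.12, 0.32 and 0.78 (0.65 to 0.92). Cbx3 was at 290, 325 and 378 CPM, with ratios of 0.15, 0.27 and 0.40 (0.30 to 0.49). Actb was at 8708, 9650 and 11665 CPM, with ratios of 0.12, 0.26 and 0.54 (0.52 to 0.56). For these 6 genes the ratio in NC cells with 3 or more UMIs was above that in NC cells with 1. The intervals of the 2 classes did not overlap except for Slc39a1. All but Notch2 were among the 15 highest ratios over all NC members, which include these same cells. A rise toward the last class is thus partly built into the choice of genes. The share of all measured genes with such a rise was not counted. Nrgn had ratios of 0.13, 0.12 and -0.10 (-0.23 to 0.03) and did not share the gradient. The class of 3 or more UMIs held 128 HC cells and 355 paired NC cells. The intervals of Slc39a1, Notch2 and Wtap in that class overlapped between HC and NC, and those of Actb, Cbx3 and Pdcd4 did not. Whether the gradients differ between libraries was not tested.

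**Figure D3:**
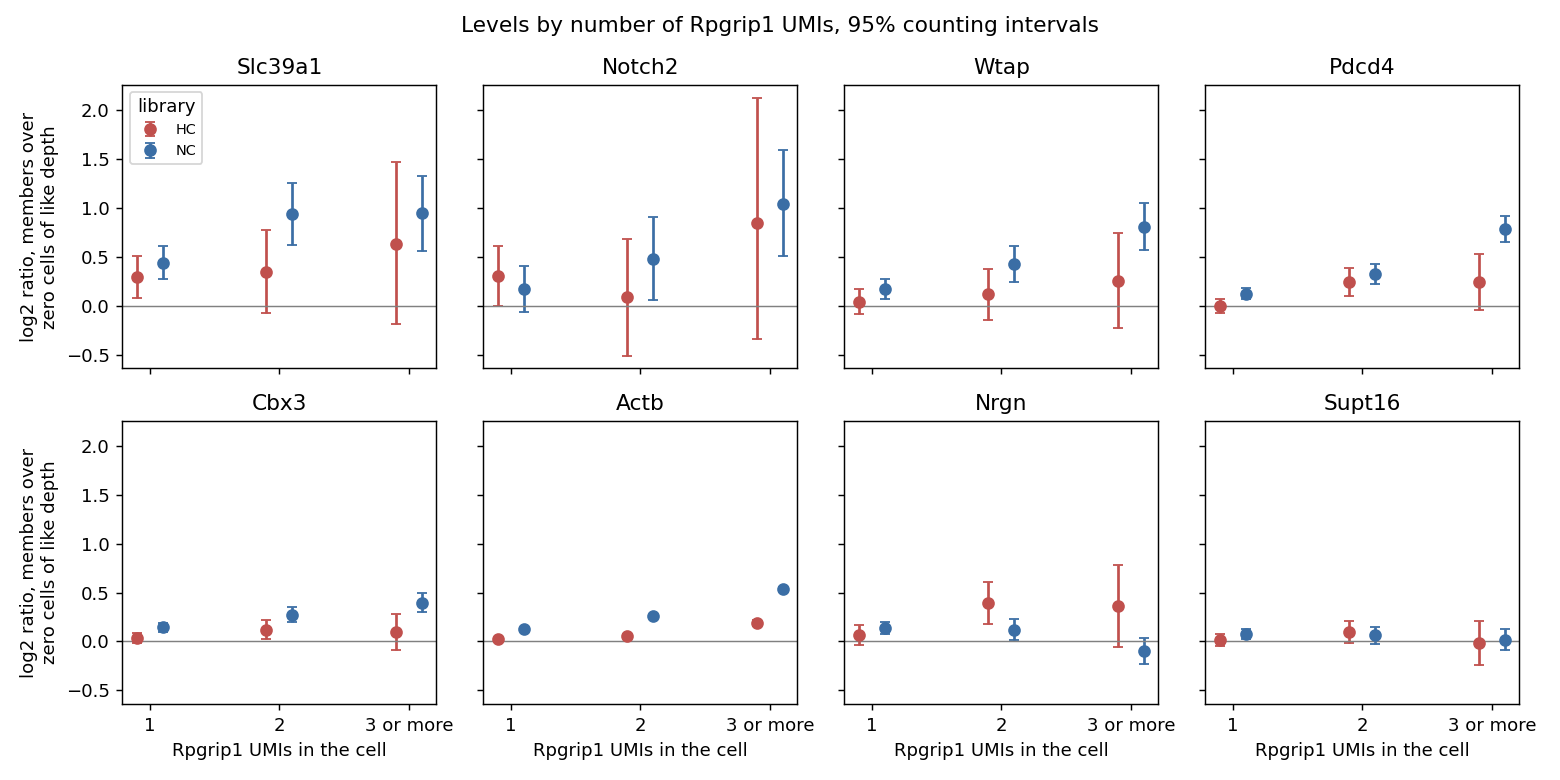
Log2 ratio of members over zero cells of like depth (y axis) for cells with 1, 2 and 3 or more Rpgrip1 UMIs (x axis), in HC (red) and NC (blue), with 95% counting intervals. In NC, Slc39a1, Notch2, Wtap, Pdcd4, Cbx3 and Actb reach 0.40 to 1.04 in the last class, while Nrgn is at -0.10 and Supt16 at 0.02.

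At a floor of 50 CPM, 0 genes passed 1.5-fold in HC cells with 1 or 2 UMIs or in NC cells with 1 UMI, and 1 gene was lower in NC cells with 2 (0.0392%). It was Ccl4, at 81.2 CPM in members and 127 CPM in zero cells, a log2 ratio of -0.64 (-0.78 to -0.51). In cells with 3 or more UMIs 10 genes were higher (0.378%) and 6 lower (0.227%) of 2645 in HC, and 8 were higher (0.303%) and 9 lower (0.34%) of 2644 in NC. In HC the highest was Gzma, a granzyme, at 52.9 CPM in members against 11.8 CPM in zero cells. The higher genes in NC included Igkc, Wtap, Pdcd4, B4galt1, a galactosyltransferase, at 0.72 and Ly6c2, a surface protein of memory and effector CD8 cells, at 0.65. The lower ones included Tfrc, the transferrin receptor of growing cells, at 57.3 CPM in members and 104 CPM in zero cells (-0.85), and the histone genes Hist1h2ae at -0.73 and Hist1h1b at -0.65.

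A class of 4 or more Rpgrip1 UMIs was added after the data were seen. In HC it held 23 cells with 418813 UMIs in all, and 222 genes were higher (7.82%) and 214 lower (7.54%) of 2840. With that total, HC ratios near the floor of 50 CPM rest on few UMIs. In the 119 paired NC cells 51 genes were higher (1.85%) and 96 lower (3.48%) of 2759. The chemokine gene Ccl3 was at 113 CPM in these NC members and 20.5 CPM in their zero cells, a log2 ratio of 2.46 (2.01 to 2.93). Ccl4 was at 187 against 75.5 CPM and Xcl1 at 466 against 251 CPM. In NC cells with 1 UMI the Ccl3 ratio was instead -0.64 (-0.77 to -0.51). These intervals do not cover UMIs gathered in few cells. Over all NC pairs, 10 cells held 28.0% of the Ccl3 UMIs of members and 10 held 43.5% of those of zero cells. Such shares were not taken by class. Pdcd4 was at 241 against 127 CPM and Btg1, an antiproliferative gene of resting lymphocytes, at 377 against 204 CPM. Tnfrsf4, the co-stimulatory receptor OX40, was at 32.7 against 82.3 CPM and Tfrc at 53.5 against 119 CPM. Igkc, past the threshold in the class of 3 or more, had 0 UMIs in these members and 1 UMI in their zero cells.

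Depth moved with the result in NC. Rpgrip1 was at 42.5 CPM in HC cells of 1000 to 4000 UMIs, 38.3 CPM at 4000 to 8000, 35.3 CPM at 8000 to 12000, 36.8 CPM at 12000 to 20000 and 34.7 CPM above. In NC it was at 102, 56.9, 47.1, 47.4 and 56.0 CPM over the same ranges. Slc39a1 stood at 15.03 CPM in HC cells of 1000 to 4000 UMIs against 12.6 CPM in HC cells of 8000 to 12000, and at 36.1 against 17.5 CPM in NC. Actb stood at 6559 against 7613 CPM in HC and at 11052 against 7999 CPM in NC. Notch2 was higher in the shallow cells of both libraries, at 10.5 CPM (7.63 to 14.1) against 6.39 CPM (5.599 to 7.27) in HC and at 17.8 against 9.19 CPM in NC. Wtap stood at 42.2 against 41.4 CPM in HC and at 68.3 against 46.9 CPM in NC. Shallow cells had a median mitochondrial share of 5.08% in HC (1292 cells) and 3.27% in NC (1620 cells). Cd8a was at 293 CPM in shallow HC cells against 231 CPM at 8000 to 12000 UMIs, and at 370 against 351 CPM in NC.

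**Figure D4:**
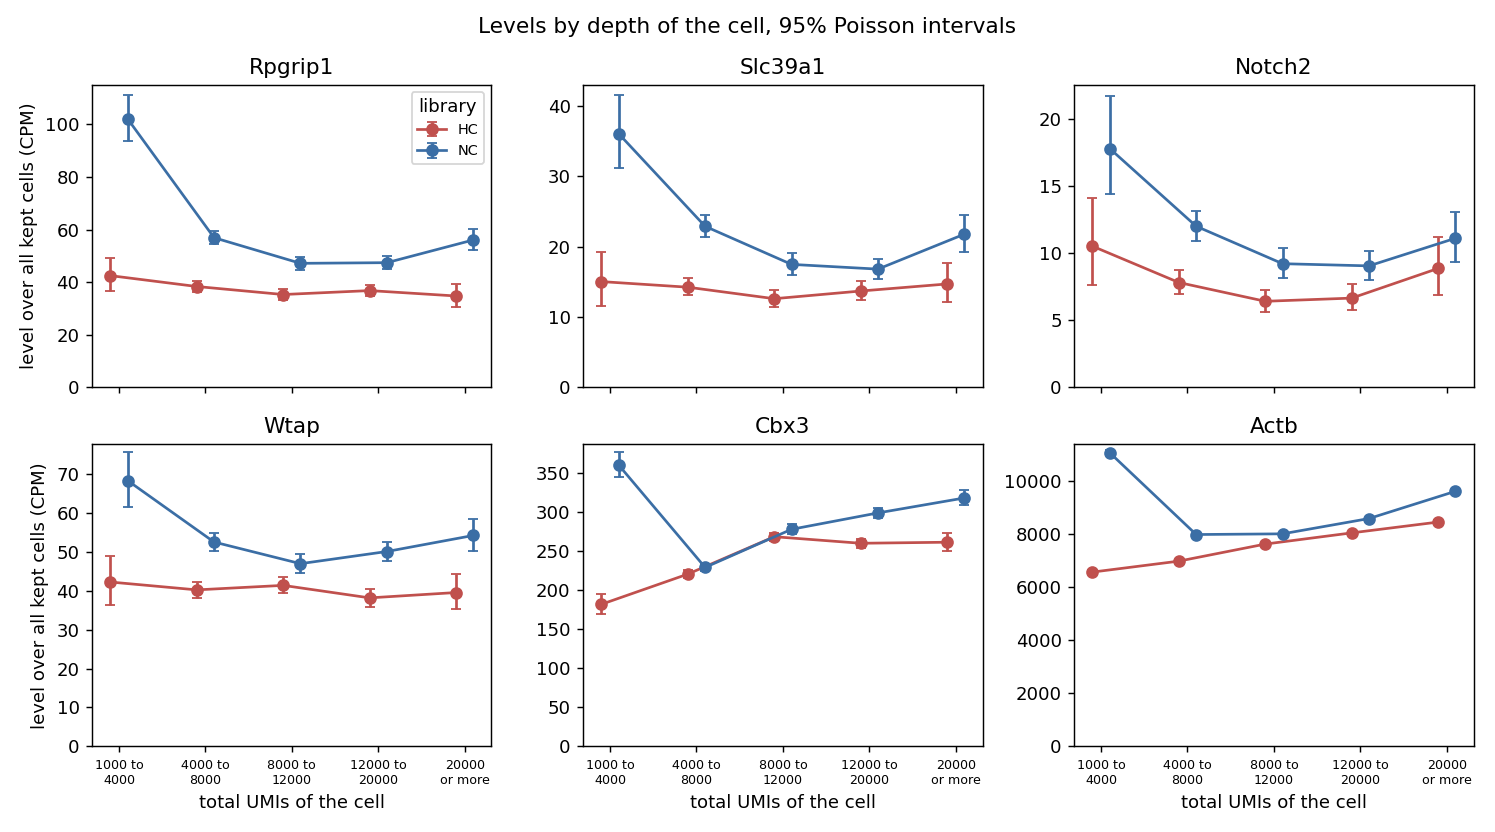
Level in CPM over all kept cells (y axis) by total UMIs of the cell (x axis) in HC (red) and NC (blue), with 95% Poisson intervals. Rpgrip1, Slc39a1, Notch2, Wtap, Cbx3 and Actb all stand higher in NC cells of 1000 to 4000 UMIs than in those of 4000 to 8000, at 102 against 56.9 CPM for Rpgrip1, and in HC the Rpgrip1 levels stay between 34.7 and 42.5 CPM.

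The share of cells with Rpgrip1 was 11.7, 19.8, 27.6, 40.5 and 51.6% over the 5 ranges in HC and 27.0, 26.7, 34.9, 45.9 and 65.7% in NC. Over the 10 groups of library and depth, Rpgrip1 levels were most like those of Ngdn (Pearson r of 0.97 between log2 levels), Wtap (0.97) and Nsrp1 (0.96) among 4891 genes, of which 15 had an r of at least 0.9. These groups share libraries, so the values are a description, and the genes were named after they were seen.

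Genes of division and of the resting state, chosen after their values were seen, had different ratios in different depth ranges of NC. In HC cells of 4000 to 8000 UMIs, with 1253 pairs, the log2 ratio of the alpha-tubulin gene Tuba1b was -0.06 (-0.13 to 0.01), that of Hmmr, a protein of the mitotic spindle, -0.22 (-0.37 to -0.07), and that of Top2a, which untangles DNA, -0.11 (-0.17 to -0.04). Ptma, prothymosin alpha, was at 0.02 (-0.01 to 0.05) and Tcf7 at -0.03 (-0.12 to 0.06) in the same cells. In NC cells of that range, with 1735 pairs, Tuba1b was at 437 CPM in NC members and 312 CPM in NC zero cells, a log2 ratio of 0.48 (0.42 to 0.55). Hmmr was at 79.0 against 51.7 CPM (0.61), Top2a at 249 against 210 CPM (0.24, 0.16 to 0.33) and Ptma at 2417 against 1894 CPM (0.35). Tcf7 was at 303 against 369 CPM (-0.29), the interleukin-7 receptor gene Il7r at 310 against 372 CPM (-0.27) and Samhd1, which breaks down nucleotides in resting cells, at 385 against 466 CPM (-0.28). In NC cells of 1000 to 4000 UMIs, with 438 pairs, the ratios had the same signs as at 4000 to 8000, at 0.34 for Tuba1b, 0.49 for Hmmr, 0.41 for Top2a, 0.25 for Ptma, -0.32 for Tcf7, -0.52 for Il7r and -0.71 for Samhd1. In HC cells of 1000 to 4000 UMIs Top2a was at 0.59 (0.20 to 0.98), opposite in sign to its HC ratio at 4000 to 8000, and the intervals of the other 6 genes held 0. In cells over 8000 UMIs the NC ratios of Tuba1b, Hmmr, Top2a and Ptma were -0.04, -0.03, -0.10 and -0.04, and those of Tcf7, Il7r and Samhd1 were 0.06, 0.08 and 0.12. Actb stayed above 0 in all 3 NC ranges, at 0.16, 0.26 and 0.18, and so did Cbx3, at 0.25, 0.34 and 0.16.

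At 4000 to 8000 UMIs and a floor of 50 CPM, 0 genes of 2404 passed 1.5-fold in HC (0%), and in NC 5 were higher (0.205%) and 1 lower (0.0409%) of 2444. The higher genes were Ccl4 (0.63), Tnfrsf9 (0.63), Timm8a1, a chaperone of the mitochondrial intermembrane space, at 0.62, Srm, the spermidine synthase, at 0.61, and Hmmr, and the lower one was Jun, a subunit of AP-1, at 46.6 against 70.1 CPM (-0.59). In cells of 1000 to 4000 UMIs 157 genes were higher (6.13%) and 129 lower (5.04%) of 2561 in HC, with 151 pairs. In NC 19 were higher (0.751%) and 33 lower (1.3%) of 2531, with 438 pairs. Ratios near the floor rest on few UMIs in these HC cells, where 27 UMIs of Wtap in zero cells made 54.4 CPM. Over 8000 UMIs 0 genes passed in HC (0%), and 1, Igkc, was higher in NC (0.0392%), at 55.6 CPM in members against 3.80 CPM in zero cells. In shallower NC cells Igkc stood the other way round, at 0.673 against 20.2 CPM at 1000 to 4000 UMIs, where members held 1 UMI of it, and at 0.889 against 15.3 CPM at 4000 to 8000 (a log2 ratio of -4.11, -5.26 to -3.14). The Ccl4 ratio in NC was -0.38 at 1000 to 4000 UMIs and -0.37 over 8000. The median mitochondrial share at 4000 to 8000 UMIs was 4.53% in HC members and 4.49% in HC zero cells, and 3.63% in NC members and 3.98% in NC zero cells, and its part in the result was not tested. Differences between the libraries or between the depth ranges were not tested.

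**Figure D5:**
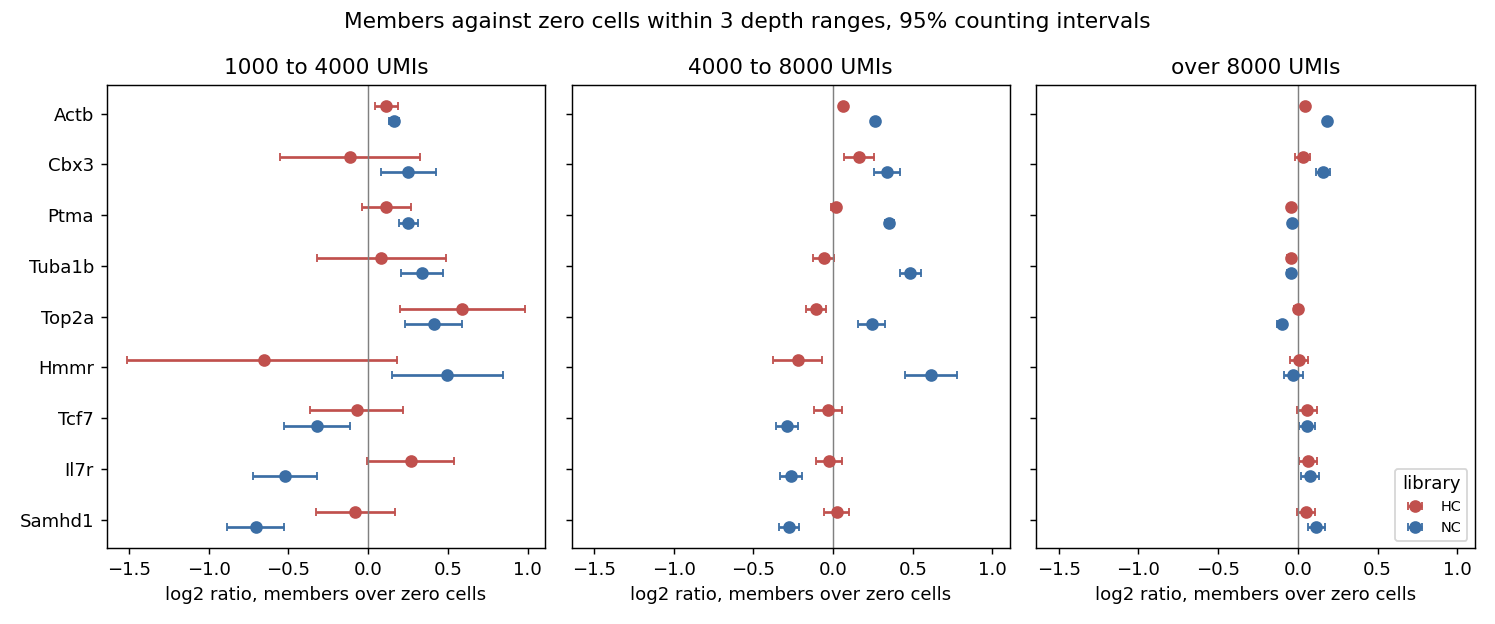
Log2 ratio of members over zero cells (x axis) for 9 genes (rows) in 3 ranges of total UMIs, in HC (red) and NC (blue), with 95% counting intervals. At 4000 to 8000 UMIs the NC points of Ptma, Tuba1b, Top2a and Hmmr lie at 0.24 to 0.61 and those of Tcf7, Il7r and Samhd1 at -0.29 to -0.27, and over 8000 UMIs these NC points lie between -0.10 and 0.12.

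Membership was spread over other sets of cells. After thinning to 2000 UMIs, Rpgrip1 was found in 7.90% of HC cells with a UMI of Slc39a1 (6.55 to 9.43) and 7.26% of other HC cells (6.81 to 7.74), and in 13.3% (11.8 to 14.8) and 9.95% (9.41 to 10.5) in NC. For Notch2 the shares were 8.08% (6.28 to 10.2) and 7.28% (6.84 to 7.75) in HC, and 12.8% (10.9 to 14.9) and 10.2% (9.71 to 10.8) in NC. For Nrgn they were 7.25% and 7.36% in HC, with overlapping intervals, and 11.8% (10.96 to 12.8) and 9.63% (9.01 to 10.3) in NC. Cells with a UMI of Xcl1, Ccl3 or Ccl4 held Rpgrip1 in 8.53% of cases (7.15 to 10.1) against 7.18% of other cells (6.73 to 7.66) in HC, and in 11.9% (11.1 to 12.9) against 9.49% (8.87 to 10.1) in NC. For Gzma the shares were 8.98% and 7.19% in HC and 8.59% and 10.5% in NC, with overlapping intervals in both. Cycling cells and others stood at 7.21% and 7.60% in HC, with overlapping intervals, and at 11.3% (10.6 to 12.1) and 9.20% (8.46 to 9.99) in NC. Cells with a UMI of Slc39a1 or of the other genes were themselves deeper than the rest, at medians of 8485 and 6762 UMIs for Slc39a1 in NC, and unthinned shares were 43.2% and 31.1%.

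Between the libraries, HC members differed from NC members about as HC zero cells differed from NC zero cells. Of 5122 genes with at least 20 CPM, 147 (2.87%) differed by at least 1.5-fold between HC members and NC members, against 129 (2.52%) of 5116 between the zero cells. In members 86 were at least 1.5-fold higher (1.68%) and 61 lower (1.19%) in HC than in NC, and in zero cells 76 were higher (1.49%) and 53 lower (1.04%). Bnip3 was at 42.6 CPM in HC members and 8.83 CPM in NC members, a log2 ratio of 2.27 in members and 2.27 in zero cells. Xcl1 was at 33.7 CPM in HC members and 338 CPM in NC members, with ratios of -3.32 in members and -3.54 in zero cells. Nrgn had ratios of -1.37 and -1.34. Slc39a1 was at -0.61 (-0.77 to -0.46) in members and -0.40 (-0.58 to -0.22) in zero cells, and Actb at -0.22 (-0.23 to -0.21) and -0.07 (-0.08 to -0.06), so the gap between libraries was wider in members for Actb by more than counting error.

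Rpgrip1 lies on chromosome 14 at 52110704 to 52163546 of GRCm38, on the plus strand, in GENCODE vM21. Its last 3133 bases overlap Supt16, a histone chaperone gene on the minus strand at 52160414 to 52197416. Whether the counting used strand is not given in the sources used here, so UMIs of the overlap are uncertain. Supt16 was at 186 CPM in HC members and 181 CPM in HC zero cells, with a ratio of 0.04 (-0.02 to 0.09), and at 217 against 204 CPM in NC, with 0.09 (0.05 to 0.13). Its ratio in NC cells with 3 or more Rpgrip1 UMIs was 0.02 (-0.09 to 0.13). The next gene, Hnrnpc, an RNA-binding protein gene ending 6676 bases before the Rpgrip1 start, had ratios of 0.01 in HC and 0.02 in NC, and Chd8, a chromatin remodeller gene on the other side, of -0.01 and -0.11.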

How the data were processed

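The deposited matrices hold UMI counts per gene and barcode for 32285 genes, raw and not normalized, made by Cell Ranger 6.1.2 per the file headers. Per the submitters' processing notes, mm10 was the build, Seurat 3.2.3 was used and Cell Ranger was version 5.0.0, which differs from the headers. Annotation release, strand setting and the authors' own barcode rule were not given in the sources used here. The library labelled HC held 116897716 UMIs in 15495 barcodes and the library labelled NC 117408492 UMIs in 14798.

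From the deepest member down, each was paired without replacement with the kept cell of 0 Rpgrip1 UMIs nearest in total UMIs, within 5%. Counts were summed over each group of cells and divided by its total to give CPM, with no pseudocount. Where 1 side had 0 UMIs the floor was 3 counts. CPM carry exact Poisson intervals, shares exact Clopper-Pearson intervals and log2 ratios exact binomial intervals, at 95%. Cells are not replicates, so no test was run. Ratios of at least 1.5-fold at 20 CPM in either group were counted. Thinning to 2000 UMIs left out 94 HC and 133 NC cells. Doublets were not removed.

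The members, the 26 gene lists and the 15 marker lists were chosen with earlier results of these data known. The result of 1 marker list is not reported here. Named genes were the set in the membership rule, the 15 highest and 15 lowest ratios in each library (floors of 20 CPM for NC, 50 CPM for HC), the 4 or fewer members of every list whose ratios lay farthest from 0, the genes nearest to Rpgrip1 and the marker genes. Other genes were named after their values were seen, among them those of the UMI classes and depth ranges. The ratio step was tested on simulated counts already summed over cells. That test does not cover genes whose UMIs are gathered in few cells. Positions came from GENCODE vM21 by identifier, matching 32158 of 32285 (99.6%). Work used Python 3.11.15, numpy 2.4.6, scipy 1.17.1, pandas 2.3.3 and matplotlib 3.10.9.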

Additional observations from a re-analysis of the deposited data

Results flagged for a closer look

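In 5 of 219 named genes the interval of the ratio of members over zero cells lay above 0 in one library and below 0 in the other. The difference itself was not tested, and the share over all measured genes was not counted. Atp8b4, Stk4 and Imp4 were named because they lay at the ends of the HC ranking, so their HC values were picked for their size. Atp8b4, a lipid flippase, had a log2 ratio of 0.16 in HC and -0.12 in NC. Stk4, a kinase of the Hippo pathway, had 0.14 in HC and -0.0832 in NC. Imp4, a factor of ribosome assembly, had -0.12 in HC and 0.0844 in NC. Ldha, which converts pyruvate to lactate, had -0.0436 in HC and 0.0600 in NC, and the glycolytic enzyme Tpi1 had -0.0307 in HC and 0.0478 in NC. All of these are under 1.5-fold. Outside the kept cells, Rpgrip1 was present in 7.93% of the HC barcodes and 8.30% of the NC barcodes that the filter left out, which the comparisons did not use.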

How the results depend on the processing

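Of 17 alternatives, 2 were added after the data were seen. The share of cells with Rpgrip1, the value that the membership rule used, stayed lower in HC than in NC in each one run. This share could not change in alternatives that alter only the choice of zero cells, the weight of cells, the scale, the floor or the fold. It was 25.9% in HC and 34.0% in NC under a stricter cell filter, 22.8% and 30.9% over all deposited barcodes, 7.33% and 10.5% after thinning, 5.03% and 8.86% for at least 2 UMIs, 18.0% and 23.9% without cycling cells, 23.4% and 30.4% without triggered cells, and 24.1% and 28.8% without chemokine cells. Without cells over 3 times the median depth the NC share was 31.7%. The log2 level of HC over NC ran from -0.66, with each cell counted the same, to -0.28 without cycling cells, and was -0.41 without chemokine cells.

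Genes past 1.5-fold in members against zero cells numbered 0 in HC as reported, and 1 under the stricter filter, 2 for at least 2 UMIs, 4 at a floor of 5 CPM and 19 without cycling cells. In NC they numbered 1 as reported, and 2 under the stricter filter, 3 for at least 2 UMIs, 2 with zero cells weighted over 20 depth bins, 2 at 5 CPM, 2 without cycling cells, 2 without triggered cells and 0 without B-marked cells. Genes of the lists numbered 0 in both as reported. In HC they were 1 under the stricter filter, 2 for at least 2 UMIs and 4 without cycling cells, and in NC 1 under the stricter filter, 1 for at least 2 UMIs, 1 with depth bins and 2 without triggered cells. Alternatives with fewer cells have fewer UMIs per gene. The number of genes measured also changes with the floor and with the cells used. The counts in this paragraph therefore have no common total and are not shares. HC members against NC members gave 221 higher and 142 lower at 5 CPM, 21 and 10 at 2-fold, and 132, 32 and 28 lower without cycling, triggered or chemokine cells. The Igkc ratio turned to -0.28 in HC and -0.42 in NC without B-marked cells, and to -2.48 and -0.72 in NC without cycling or triggered cells. The cause of these moves was not tested. Triggered cells are those with a UMI of Egr1, Egr2, Egr3, Nr4a2 or Nr4a3. No paired analysis was possible because there was 1 library per group. Without chemokine cells Ccl3, Ccl4 and Xcl1 have no ratio, since those cells hold all of their UMIs.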
